A study of Mus musculus with 31 samples.

Results

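The genes described here encode 10 enzymes or cofactors of DNA methylation and of the Polycomb system, Dnmt1, Dnmt3a, Dnmt3b, Dnmt3l, Uhrf1, Tet1, Tet2, Tet3, Ezh1 and Ezh2, out of 21938 protein-coding genes in the GENCODE annotation of mm10. They were chosen by name, and their chromatin was read from the peak list of the parental NIH-3T3 library. NIH-3T3 is a mouse fibroblast line, and the parental cells carry no introduced transcription factor (TF). In ATAC-seq the transposase Tn5 cuts DNA that nucleosomes leave free, so that sequenced fragments pile up where chromatin is accessible. The series has 31 samples. The other 30, with doxycycline-induced overexpression of 13 TFs or with rtTA3G alone, were not analysed here, and no condition was compared. The parental library came from 50000 cells treated with 0.5 µM Tn5 and amplified for 12 cycles according to the labels. The labels list no doxycycline for it, but the paper's ATAC-seq methods describe doxycycline treatment of NIH-3T3 cells without naming an exception. Whether the parental cells received it is therefore not known. Of 63456 peaks, 64 lay within 25 kb of the 10 genes. Each peak has a fold enrichment, the ratio of the fragments at its summit to the local expected number, each with 1 added. It also has a −log10 q, the significance of that excess after adjustment over the genome. With 1 library there is no replicate error, so that intervals below are exact 95% Poisson intervals of the fragments at the summit. They cover counting error only, and no test was made. Promoter peaks were present at all 10 fibroblast markers looked up (Col1a1, Col1a2, Vim, Thy1, Pdgfra, Pdgfrb, Twist1, Prrx1, Fn1 and Lox), with folds from 3.41 at Thy1 to 10.5 at Fn1 and a median of 7.05. They were present at 1 of 4 epithelial markers (Krt8, fold 3.25), at 2 of 3 blood markers (Cd34 and Spi1, folds 10.1 and 3.22), and at 0 of 4 pluripotency and 0 of 4 germ cell markers.

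Methyl groups on the cytosines of CpG dinucleotides are copied to new DNA strands by DNMT1, which UHRF1 brings to half-methylated sites. DNMT3A and DNMT3B place new methyl groups, with the help of the catalytically inactive DNMT3L, and the TET dioxygenases oxidise the methyl group as a step towards its removal. EZH2 and its homologue EZH1 are the catalytic subunits of Polycomb repressive complex 2 (PRC2), which methylates lysine 27 of histone H3. As background, Dnmt1, Uhrf1 and Ezh2 are known as genes of dividing cells, and Tet2, Tet3, Dnmt3a and Ezh1 are active in many tissues. These 7 are called broad members here. Dnmt3b, Dnmt3l and Tet1 are best known from stem cells, the early embryo and germ cells.

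In all, 9 of the 10 genes had a peak within 1 kb of an annotated transcription start site (TSS), against 53.7% of all protein-coding genes. At a fold of at least 5, 8 of the 10 had one, without Dnmt3l, against 48.8%. The broad members had one at 6 of 7 genes and the germline or stem cell members at 3 of 3, so that the presence of a peak did not separate the classes. The gene without a promoter peak was Dnmt3a. Because GENCODE lists many internal and partial transcripts, the 10 genes have 90 distinct starts, of which 36 had a peak within 1 kb. No share over all GENCODE starts is set beside this count. RefSeq lists 17 starts for the 10 genes, of which 11 had a peak, against 50.0% of the 21263 RefSeq starts of coding genes. These 11 belong to the same 9 genes, and 52.9% of the coding genes in that table had such a peak. With GENCODE's basic transcripts, 8 genes had one, without Tet1, against 51.5%. Of the peaks counted at promoters, the one farthest from a start was a peak of Tet3 at 980 bp (fold 6.40), and the nearest left out was an intronic peak of Ezh1 at 1448 bp (fold 4.38).

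**Figure D1:**
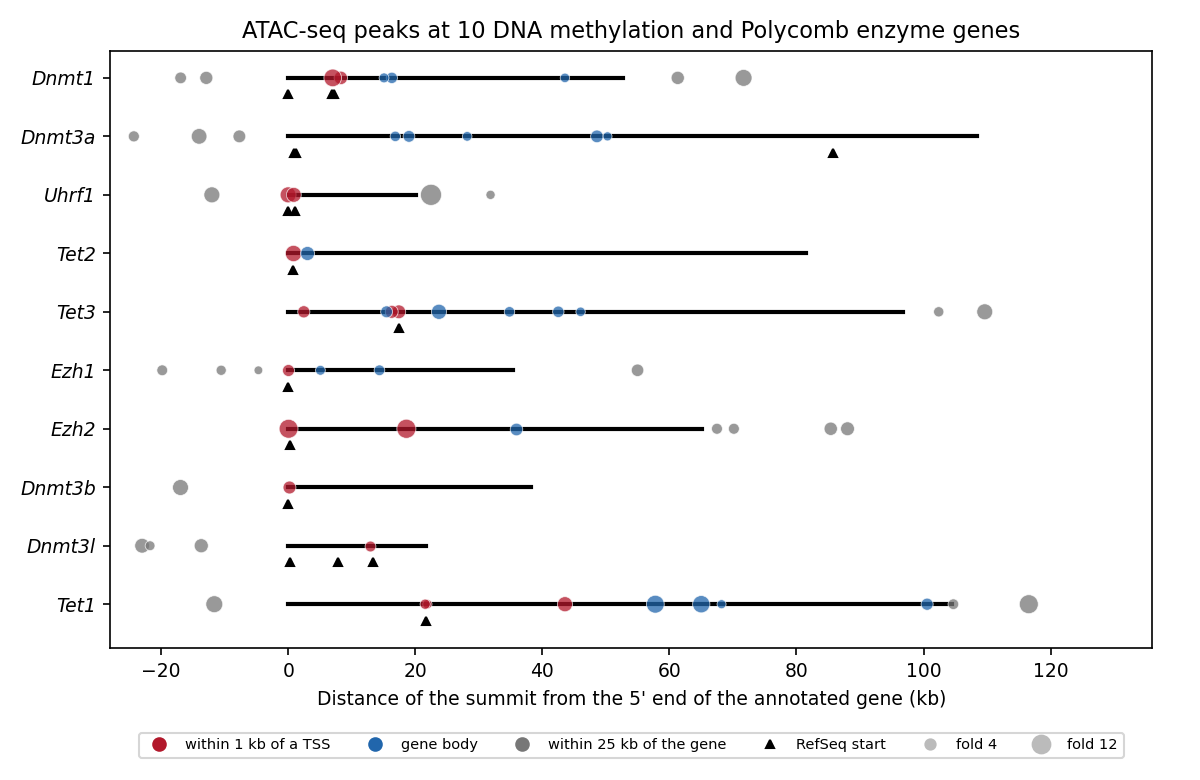
Summits of the 64 peaks at the 10 genes, by distance in kb from the 5′ end of the annotated gene in the direction of transcription. Black lines are gene bodies, triangles RefSeq starts, colour gives the position of the peak and the area of a point its fold enrichment. Dnmt3a has peaks on both sides of its first starts but none at them, and Tet1 has large points far inside the gene.

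The height of the promoter peak varied more than its presence. For the strongest peak within 1 kb of any GENCODE start, the median fold was 9.72 over the 7 broad members, with Dnmt3a set to 0, and 6.34 over the 3 germline or stem cell members. Over the 6 broad members with a peak the median was 9.96, and over the 11788 protein-coding genes with a promoter peak it was 9.86. With Dnmt3b, which is also found outside the germline, put among the broad members, the medians were 8.48 and 6.60. At RefSeq starts, a set chosen after seeing the data, they were 9.72 and 4.49, again with Dnmt3a set to 0. Over the broad members with a peak at a RefSeq start the median was 9.96. Over the 8745 coding genes with such a peak it was 10.02 (quartiles 7.47 and 12.5). Among the broad members with a peak, the fold at RefSeq starts ranged from 5.49 at Ezh1 to 13.7 at Ezh2. The range among the others was from 3.98 at Tet1 to 6.34 at Dnmt3b. The classes overlapped, since the interval of Ezh1 (3.79 to 7.73) held the values of all 3 germline or stem cell members. Genes are not replicates of a class, and no difference between the classes was tested.

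**Figure D2:**
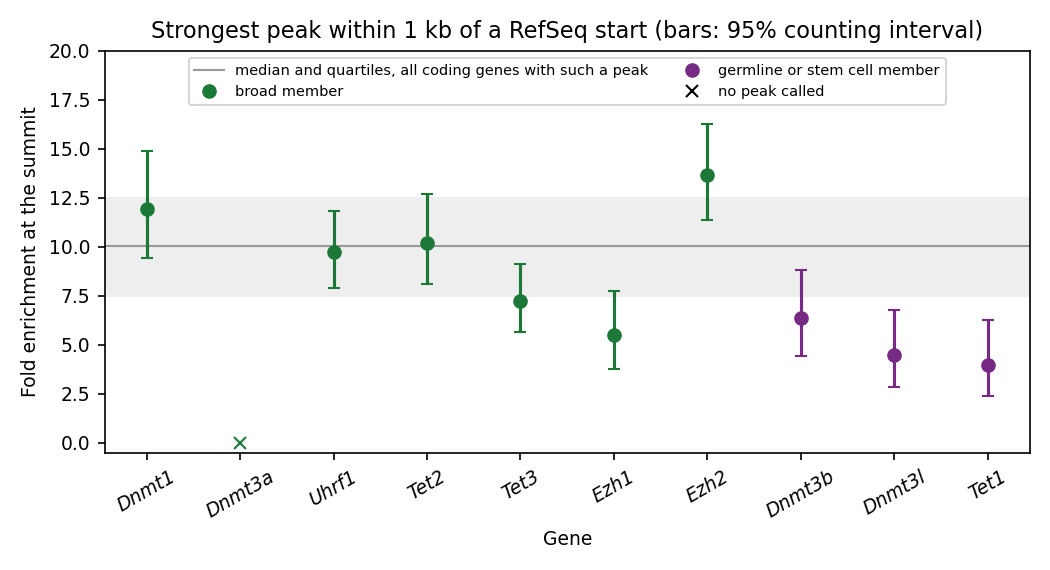
Fold enrichment of the strongest peak within 1 kb of a RefSeq start, for each gene, with 95% counting intervals. The grey band and line give the quartiles (7.47 and 12.5) and the median (10.02) over the 8745 coding genes with such a peak. Dnmt1, Tet2 and Ezh2 lie above the line and Uhrf1, Tet3, Ezh1, Dnmt3b, Dnmt3l and Tet1 below it, and Dnmt3a has no peak.

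Both genes of maintenance methylation had promoter peaks, that of Dnmt1 above and that of Uhrf1 close to the median over genes. At Dnmt1, the maintenance methyltransferase, the main peak lay on chromosome 9 of mm10 from 20952322 to 20953238. It had 76 fragments at its summit, a fold of 11.9 (interval 9.43 to 14.9) and a −log10 q of 55.3, with a fold above that of 69.6% of the coding genes with a peak at a RefSeq start. It covered the RefSeq starts at 20952623 and 20952979. The other RefSeq start, upstream at 20959888, had no peak closer than 6650 bp. Dnmt1 is known to use an oocyte-specific first exon besides the somatic one, but the annotation used here does not say which start is which. A smaller peak in an intron, from 20951507 to 20951742, had 45 fragments and a fold of 6.88.

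At Uhrf1, which encodes the reader of half-methylated CpG, each of the 2 RefSeq starts had a peak of its own. The first lay on chromosome 17 from 56303011 to 56303598, with 99 fragments and a fold of 9.72 (7.92 to 11.8), above that of 46.6% of such genes. The second, from 56303914 to 56304485, had 88 fragments and a fold of 8.49 (6.83 to 10.4), and the intervals overlapped. Uhrf1 had no further peak in its body. The strongest of all 64 peaks had its summit 2304 bp beyond its 3′ end, with 195 fragments and a fold of 16.99 (14.7 to 19.5), and belongs by position to the start of Kdm4b, which encodes a histone H3 lysine 9 demethylase.

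Both catalytic subunits of PRC2 had a peak at the start, and that of Ezh2 was the stronger. At Ezh2, the start lay in the widest promoter peak of these genes (1510 bp), from 47594198 to 47595707 on chromosome 6. It had 123 fragments, a fold of 13.7 (11.4 to 16.3) and a −log10 q of 94.0. At Ezh1, the start was covered from 101226184 to 101226678 on chromosome 11, with 31 fragments, a fold of 5.49 (3.79 to 7.73) and a −log10 q of 13.1. The intervals of these folds do not overlap. Ezh2 had another peak of like fold from 47576514 to 47577092, with 57 fragments and a fold of 14.0 (10.7 to 18.05). Its summit lay in an intron 18283 bp downstream of the RefSeq start. It counted as a promoter peak because its interval ended 568 and 918 bp from a pair of internal GENCODE starts. The nearer start is that of a protein-coding transcript in GENCODE's basic set. The CpG content of this intronic peak set it apart from the peak at the RefSeq start, with 0.864 CpG per 100 bp against 10.7.

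The TET genes were accessible in different places. At Tet2, 1 broad peak covered the start, on chromosome 3 from 133544026 to 133545056, with 78 fragments and a fold of 10.2 (8.09 to 12.7). The noncoding gene Gm42567 also starts within 1 kb of it, so that it cannot be given to Tet2 alone. A further peak had its summit 2164 bp downstream of the RefSeq start (fold 7.54), and the rest of the gene, 81461 bp long in all, had none. At Tet3, the RefSeq start lay under a peak from 83441350 to 83441976 on chromosome 6, with 71 fragments and a fold of 7.24 (5.68 to 9.11). The noncoding gene B230319C09Rik likewise starts within 1 kb of that peak. The start of the longest coding transcript of Tet3, at 83456392, had a separate peak with 32 fragments and a fold of 5.67 (3.93 to 7.93). At Tet1, the RefSeq start at 62887324 on chromosome 10 lay between a pair of weak peaks. They had 14 and 17 fragments and folds of 3.30 (1.90 to 5.39) and 3.98 (2.41 to 6.25), higher than 7.19% and 14.9% of the peaks near a TSS. Another peak, from 62865252 to 62865900, lay at the start of a noncoding Tet1 transcript and was higher, with 38 fragments and a fold of 8.71 (6.23 to 11.9).

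Among the genes of new methylation, Dnmt3b had a peak over its start, on chromosome 2 from 153648984 to 153649934, with 33 fragments and a fold of 6.34 (4.43 to 8.83). A start of the noncoding gene Dnmt3bos lies within 1 kb of it as well. Dnmt3l had no peak at its first RefSeq starts, and the nearest was 12426 and 4871 bp away. Its promoter peak, on chromosome 10 from 78054713 to 78054910, was 425 bp from an internal RefSeq start and was small, with 21 fragments and a fold of 4.49 (2.86 to 6.75).

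Dnmt3a stood out among the broad members. None of its 18 GENCODE starts and none of its 3 RefSeq starts, at 3806980, 3807160 and 3891744 on chromosome 12, had a peak within 1 kb. The peak nearest to a RefSeq start ended 8395 bp before the first of them. The closest approach of a peak to any GENCODE start was 4720 bp, at an internal start. The gene was not free of peaks. The flank upstream of it held 3, with folds of 4.65, 9.36 and 6.22, and its introns held 5, with folds from 3.16 to 6.11. The first RefSeq starts lie in CpG-rich sequence, with 46 and 47 CpG in the window from 250 bases before to 50 bases after the start, and the internal start has 18. Of 1081 RefSeq starts of coding genes with 40 CpG or more, 78.4% had a peak within 1 kb. The GC content of the first windows was also high, at 82.3% and 81.0%, and of the 282 starts with a GC content of 80% or more, 71.6% had a peak. Tet2 had a GC content of 81.3% and 57 CpG in its window, and did have a peak, which it shares with the start of Gm42567. The part of GC content in the absence of a peak at Dnmt3a was not tested. A start without a peak is not shown to be closed, since the list holds no values below its threshold and the lowest summit in it had 10 fragments.

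The sequences upstream of the first RefSeq start show this contrast, with every CpG in capitals. They are given 5′ to 3′ along the gene from the reference genome of mm10, up to the base before the start, and annotated untranslated sequence is left out. The order is a CpG-rich start without a peak, CpG-rich starts with one, and a CpG-poor start without one.
Dnmt3a, chr12:3806780-3806979 on the plus strand: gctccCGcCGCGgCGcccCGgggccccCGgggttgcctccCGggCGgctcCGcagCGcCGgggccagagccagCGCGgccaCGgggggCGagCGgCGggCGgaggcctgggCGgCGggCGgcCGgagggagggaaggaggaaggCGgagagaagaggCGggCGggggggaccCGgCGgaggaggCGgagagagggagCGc
Tet2, chr3:133544391-133544590 on the minus strand: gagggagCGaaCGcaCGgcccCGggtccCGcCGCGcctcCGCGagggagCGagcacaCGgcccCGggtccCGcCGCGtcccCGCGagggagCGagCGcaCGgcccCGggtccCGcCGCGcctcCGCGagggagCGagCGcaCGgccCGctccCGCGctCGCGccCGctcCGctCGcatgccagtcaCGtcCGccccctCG
Dnmt3b, chr2:153649249-153649448 on the plus strand: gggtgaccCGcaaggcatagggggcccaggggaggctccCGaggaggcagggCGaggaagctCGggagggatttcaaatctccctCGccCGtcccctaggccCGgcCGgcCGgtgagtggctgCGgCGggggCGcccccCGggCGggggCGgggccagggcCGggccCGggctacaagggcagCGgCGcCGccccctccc
Dnmt3l, chr10:78042136-78042286 on the plus strand: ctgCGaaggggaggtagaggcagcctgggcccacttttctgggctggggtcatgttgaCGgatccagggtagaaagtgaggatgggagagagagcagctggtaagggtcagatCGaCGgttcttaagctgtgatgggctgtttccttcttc
Over 200 bases, the stretch of Dnmt3a holds 29 CpG, that of Tet2 40 and that of Dnmt3b 20, and the 151 bases of Dnmt3l hold 4.

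Across all RefSeq starts of coding genes, the share with a peak within 1 kb was 9.15% at 4 CpG or fewer in the window and 82.7% at 30 to 39 CpG. The members' starts followed the CpG content only in part. The starts without a peak were the upstream start of Dnmt1 (2 CpG), those of Dnmt3l (6 and 4) and all 3 of Dnmt3a. The starts of Dnmt3b and Ezh2 had nearly the same CpG number, 30 and 31, with folds of 6.34 and 13.7.

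**Figure D3:**
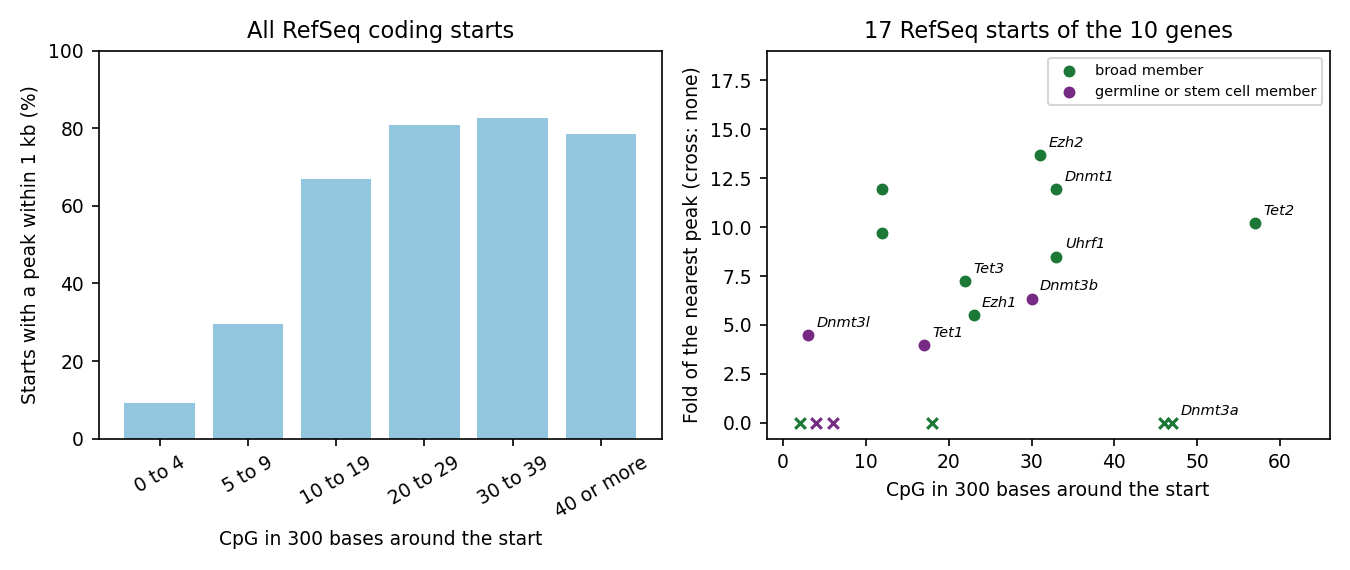
Left, share of all RefSeq coding starts with a peak within 1 kb, by the number of CpG in 300 bases around the start. Right, the 17 starts of the 10 genes by CpG number and fold enrichment of the nearest peak, with a cross where none lies within 1 kb. The crosses at 46 and 47 CpG are Dnmt3a, where 78.4% of all starts with 40 CpG or more had a peak.

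Short sequences known to be bound by TFs were searched on both strands of the 300-base windows at the 17 RefSeq starts. The E2F family, which controls genes of the cell cycle, binds TTTCCCGC, TTTGGCGC, TTTCGCGC and TTTGCCGC among others. One of these words was present at 3 of the 17 starts, 1 each of Dnmt1, Uhrf1 and Ezh2, and in 2.85% of the windows at 21263 RefSeq starts of coding genes. Each word holds a CpG, and the windows at the 3 starts held 33, 33 and 31 CpG, against a median of 13 over all windows. No share for windows of like CpG content was computed, and the words were chosen with earlier results of these data known. These starts are those of the genes known from dividing cells, so the sites are shown with the word in capitals.
Dnmt1, downstream of the start, chr9:20952572-20952601 on the minus strand: gcggggcagcgTTTGGCGCgggctgtgctt
Dnmt1, upstream of the start, chr9:20952824-20952853 on the minus strand: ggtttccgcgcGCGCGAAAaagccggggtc
Uhrf1, second start, chr17:56304117-56304146 on the plus strand: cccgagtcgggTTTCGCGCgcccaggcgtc
Ezh2, chr6:47595009-47595038 on the minus strand: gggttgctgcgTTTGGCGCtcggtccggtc
Counted from the RefSeq start, the words began at 33 and -219 for the Dnmt1 start at 20952623, at -185 for the second Uhrf1 start and at 3 for Ezh2. None of them overlapped another word searched. None of the E2F words lay in the 101-bp windows at the summits of the 64 peaks. Of all summit windows, 1.17% near a TSS and 0.265% away from one held such a word, so that 0 is not a result about these peaks. The NRF1 motif, searched as a palindrome of 10 bases, occurred at 2 starts of Dnmt1 and in 1.33% of all windows. The word GGGCGG, bound by SP and KLF factors, occurred at 12 of the 17 starts and in 46.2% of all windows. These 12 starts belong to 8 genes, and the windows of the first Dnmt3a starts overlap. The NRF1 word and GGGCGG also hold CpG, and no share for windows of like CpG content was computed for them. The word CCAAT, bound by NF-Y, occurred at 6 and in 38.2%. The words of AP-1 (TGACTCA), ETS (CCGGAAGT) and CRE-binding factors (TGACGTCA) occurred at 0 of the 17, and in 4.66%, 5.15% and 2.23% of all windows, so that 0 is not a result about these starts. A word is a match of letters, and binding was not measured.

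Away from promoters, the 10 genes held 21 peaks in their bodies, 20 of them with the summit in an intron, and 27 peaks in the flanks of 25 kb. The peaks in gene bodies were lower and narrower than those at promoters, with a median fold of 4.87 against 7.06 and a median width of 266 bp against 583.5 bp. The difference in fold is general in the list, where peaks away from a TSS had a median of 5.54 and peaks within 1 kb of one 8.03. They were also poor in CpG, with a median of 0.906 per 100 bp against 5.93. Tet3 and Dnmt1, followed by Tet1 and Ezh1, held many peaks for their length. Tet3 had 8 summits within the gene, promoter peaks included, and 89.7% of the protein-coding genes within a factor of 1.25 of its length had fewer. Dnmt1 had 5, and 89.3% of genes like it in length had fewer. For Tet1, with 7, and Ezh1, with 3, the shares were 82.3% and 81.9%. These genes have promoter peaks, while the genes of like length include some without one. Dnmt3a, with 5 summits in 108437 bp, had more than 66.6% of genes like it in length, and Dnmt3b, with 1, had more than 31.1%.

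Among the 21 peaks counted in gene bodies, the strongest were those of Tet1. The intronic Ezh2 peak of fold 14.0 was higher but was counted at a promoter because of its internal starts. They lay in introns on chromosome 10 from 62843780 to 62844310 and from 62850900 to 62851810. The first had 81 fragments and a fold of 11.5 (9.14 to 14.2) and the second 85 fragments and a fold of 12.2 (9.78 to 15.1). Their summits were 36110 bp or more downstream of the RefSeq start. Both folds were above those of the 3 Tet1 peaks at annotated starts, with intervals that overlapped that of the peak at the noncoding start only. Among all peaks away from a TSS, 90.1% and 92.3% had a lower fold. The next highest in a gene body were an intronic peak of Tet3, from 83435291 to 83435637 (fold 8.75), and that of Tet2 (7.54). The peaks in the bodies of the broad members had a median fold of 4.38 over 17 peaks, and those of the germline or stem cell members, all 4 in Tet1, had 8.54.

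The AP-1 word TGACTCA, bound by the FOS and JUN family, was in the 101-bp summit window of 4 of the 21 peaks in gene bodies. It was in 26.4% of the windows of all peaks away from a TSS, and the 4 are no more than that share. It also occurred in 2 of the 16 promoter peaks, against 8.15% of all peaks near a TSS. Both of these lie in introns. In the flanks it occurred in 4 of the 27 peaks, 2 at Ezh2 and 1 each at Uhrf1 and Dnmt3l. The peak near Uhrf1 lies at the start of Plin3. Of the 15 flanking peaks away from other starts, 3 held the word, no more than the 26.4% of all peaks away from a TSS. The windows within the genes are given 5′ to 3′ along the gene with the word, on either strand, in capitals, since they are the peaks inside these genes that hold it.
Ezh2, fold 14.0, chr6:47576697-47576797 on the minus strand: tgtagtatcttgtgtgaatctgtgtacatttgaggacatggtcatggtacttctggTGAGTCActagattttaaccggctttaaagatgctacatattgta
Tet3, fold 6.40, chr6:83442747-83442847 on the minus strand: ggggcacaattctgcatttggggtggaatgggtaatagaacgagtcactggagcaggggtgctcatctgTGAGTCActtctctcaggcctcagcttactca
Dnmt3a, fold 6.11, chr12:3854545-3854645 on the plus strand: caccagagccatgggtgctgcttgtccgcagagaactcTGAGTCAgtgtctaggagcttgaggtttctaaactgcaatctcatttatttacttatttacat
Dnmt3a, fold 5.29, chr12:3824958-3825058 on the plus strand: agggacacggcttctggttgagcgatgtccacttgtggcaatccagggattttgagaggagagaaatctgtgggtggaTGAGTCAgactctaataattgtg
Tet3, fold 5.00, chr6:83416523-83416623 on the minus strand: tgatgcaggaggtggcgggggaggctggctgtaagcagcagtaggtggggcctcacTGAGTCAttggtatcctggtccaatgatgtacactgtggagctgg
Dnmt1, fold 4.87, chr9:20943535-20943635 on the minus strand: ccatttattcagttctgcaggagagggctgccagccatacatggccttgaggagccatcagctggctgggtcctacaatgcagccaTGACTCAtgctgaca
The summit windows of the strong intronic peaks of Tet1 did not hold the word.

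Of the 27 flanking peaks, 12 lay within 1 kb of a start of another gene and had a median fold of 9.72. The other 15 had a median fold of 4.55. Peaks at the starts of S1pr2, Eif3g and Ppan flank Dnmt1, and peaks at those of Ccar1 and Slc25a16 flank Tet1 (folds 13.8 and 11.0). The flanks of Dnmt3a, Dnmt3l and Ezh2 held 3, 3 and 4 peaks, none at another annotated start. Those upstream of Dnmt3l reached a fold of 8.33 (5.75 to 11.7), 23007 bp from the gene, with an interval that overlapped that of its promoter peak. Peak lists do not tell which gene such a site acts on.

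Other genes of these pathways were looked up by role, 60 in all, of which 59 are in the annotation. A promoter peak was present at 53 of the 59, against 53.7% of all protein-coding genes. All 4 core partners of EZH1 and EZH2 had one (Eed, Suz12, Rbbp4 and Rbbp7), with folds from 9.30 at Eed to 13.5 at Suz12. Of the genes for accessory subunits of PRC2, 6 of 7 had one, from 6.14 at Phf1 to 13.5 at Mtf2, and Epop did not. In PRC1, the complex that ubiquitinates histone H2A, 19 of 20 had one, from 3.30 at Pcgf2 to 14.6 at Rnf2, which encodes its catalytic subunit RING1B. The exception was Cbx7, which encodes a reader of methylated lysine 27. Of the demethylases of lysine 27 and the genes of H2A deubiquitination, 4 of 5 had one, from 7.09 at Kdm6a to 12.6 at Asxl1, and Kdm6b did not.

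On the side of DNA methylation, all 7 genes listed for methyl-CpG binding proteins or their relatives had a promoter peak, from 2.98 at Zbtb4 to 18.4 at Mbd1. All 5 genes of base excision repair, which completes demethylation, had one, from 3.66 at Neil1 to 14.9 at Xrcc1. All 6 cofactors of methylation at replication had one, from 6.07 at Uhrf2, a homologue of Uhrf1, to 17.3 at Lig1, the replicative DNA ligase. Of the germline or embryo factors, 2 of 5 had one, against 53.7% of all protein-coding genes. Trim28 (9.28), a corepressor expressed in most tissues, and Zfp57 (7.78) had a peak. Dppa3, Dnmt3c and Zfp42 had none. Dnmt3c, a rodent methyltransferase of male germ cells, arose by duplication of Dnmt3b, and reads from such copies may be lost where only unique alignments are kept. Whether this applies to Dnmt3c, or to Dnmt3b as the other copy, was not tested.

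**Figure D4:**
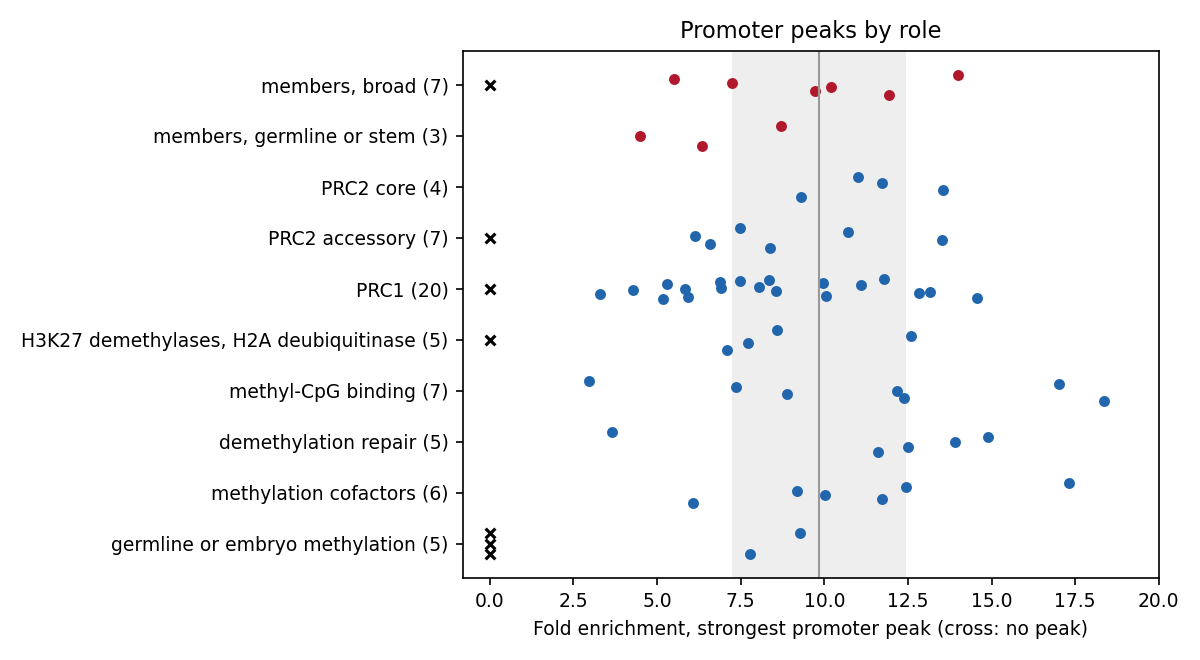
Fold enrichment of the strongest peak within 1 kb of any GENCODE start for the members (red) and other genes of the pathways by role (blue), with the number of annotated genes in brackets and a cross for a gene without a peak. The line and band give the median (9.86) and quartiles (7.27 and 12.4) over the 11788 protein-coding genes with a promoter peak. All 4 PRC2 core genes have a peak, and 3 of 5 germline or embryo factors have none.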

How the data were processed

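Peaks of 1 parental NIH-3T3 library were used. According to the paper's methods and the submitters' processing notes, the authors used STAR 2.5.3a for alignment to mm10 and kept unique alignments on the autosomes and sex chromosomes. Picard served to remove duplicates, and MACS2 2.1.1.20160309 to call peaks from whole fragments of each sample. A shift of the ends for Tn5 is not described. Removal of peaks also called in input is described for ChIP-seq, to which the ATAC-seq methods refer. The authors deposited a fold enrichment (a ratio), a −log10 p and −log10 q, and a score derived from the −log10 q, which was not needed here. The lowest −log10 q was 1.30.

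Fragments at each summit were solved from the fold and −log10 p, and 99.997% came out within 0.02 of a whole number. This step recovered 100% of 4977 simulated summits. They were made with the same formula that the step inverts and did not span the library's full range. The figure therefore checks the arithmetic only. The median was 29 fragments. The depth of the library in reads is not given by the list.

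Coordinates are mm10, counted from 1. Starts came from GENCODE M21 and from the RefSeq promoter table of GRCm38.p6, in which all 10 members were found. A peak was placed at a promoter when its interval lay within 1 kb of a start, otherwise in the gene body when its summit lay in the gene, and otherwise in the flank when its interval lay within 25 kb. All members were named. In each role list, genes without a peak and those with the highest and lowest fold were named. Members, lists and words were chosen with earlier results of these data known. Python 3.11.15, pandas 2.3.3, SciPy 1.17.1 and pysam 0.24.0 were used. Alternatives were other thresholds, distances, flanks, start sets and windows, and Dnmt3b counted among the broad members.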

Additional observations from a re-analysis of the deposited data

How the results depend on the processing

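No paired analysis was possible because the values come from a single library and no test. The promoter peak count of 9 members was 8 at a fold of at least 5, without Dnmt3l, and 8 with GENCODE's basic transcripts, without Tet1. It was 9 under the other thresholds, distances and start sets, except for the longest coding transcripts described below. With Dnmt3b among the broad members, the class medians of 9.72 and 6.34 became 8.48 and 6.60, and with RefSeq starts 9.72 and 4.49. The RefSeq and basic starts were chosen after seeing the data. With RefSeq starts, 47 of the 59 other pathway genes could be looked up, and 44 had a peak. At a fold of at least 5, 10 peaks in gene bodies and 17 in flanks were left, which follows from the threshold. Flanks of 10 kb held 8 peaks and flanks of 50 kb held 58, which follows from their width. The longest coding transcripts of Dnmt1, Dnmt3a, Dnmt3l and Tet1 start without a peak within 1 kb, so the count was lower there. With these transcripts alone, the median fold over the 10 members, with 0 for none, was 5.58 in place of 7.97. Counts below 10 fragments are outside the reach of the list.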
